A study of Mus musculus with 4 samples.

Results

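Integrin subunits of tumor and leukocytes were examined as 10 named genes, chosen by symbol, out of the 11057 genes that had a listed transcript in any library. Those that epithelial and stromal cells use were Itga3, Itga5, Itga6, Itgav, Itgb1, Itgb4 and Itgb5. Those that leukocytes use were Itgam, Itgax and Itgb2. The libraries came from tumors of 4T1 cells, a metastatic mouse mammary carcinoma line, grown in the mammary fat pad of young adult Foxp3+EGFP Balb/c mice, an immunocompetent strain in which the Foxp3 promoter drives a green reporter. Mice of every group carried that reporter and that tumor, and they differed in treatment, which was either Control SMO or LFPRLR SMO for 12 days. An SMO is a splice-modulating oligomer, here one that lowers the long form of the prolactin receptor (LFPRLR), and the Control SMO is its comparator. RNA of 6 mice was pooled into each of 4 libraries, from whole tumor or from tumor Tregs (Foxp3+ regulatory T cells) sorted on the reporter from further mice, so each group was 1 library with no replicate, no SD and no test. A ratio between libraries therefore describes those libraries.

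Both sorted libraries held the same values, with 4838 of 4838 transcripts the same whichever SMO the label names, and were counted once as the sorted tumor Treg set. No SMO comparison is given for it. The headers of both name a control alignment, and which sorted sample it came from cannot be told apart. The label was checked against 13 markers of T cells and Tregs, of which 0 were listed in that set, including Foxp3, Cd3e, Cd4, Il2ra and Ctla4. All 14 of the 14 monocyte and macrophage markers were listed there. Of 12 neutrophil markers 5 were listed, Mmp9, S100a8, S100a9, Mmp8 and Cxcr2, with Ly6g and Csf3r among those not listed. Prlr, the gene that the LFPRLR SMO targets, had a listed transcript in 0 of the 4 libraries, so the treatment labels could not be checked by it. The sorted set is called by its label below, as a set whose listed genes go against that label.

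Integrins are membrane receptors made of an alpha and a beta chain. The alpha chain largely sets the ligand and the beta chain carries most of the tail that talins and kindlins bind on the way to actin. Itgb1 pairs with Itga3 and Itga6 as laminin receptors, with Itga5 as the classical fibronectin receptor and with Itgav. Itga6 also pairs with Itgb4, the subunit of hemidesmosomes, which ties to keratin filaments in place of actin. Itgav pairs with Itgb5 as a vitronectin receptor. Itgb2 (CD18) is restricted to leukocytes and pairs with Itgam (CD11b, the complement receptor Mac-1 of myeloid cells) or with Itgax (CD11c, of dendritic cells and some macrophages).

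The files give an FPKM (fragments scaled to transcript length and to all mapped fragments) for each assembled transcript. A transcript was given to a gene of GENCODE M21 (GRCm38, the same assembly as mm10) through a shared intron or at least 50% of its exon bases. The summed FPKM of a gene adds its transcripts, so a gene whose transcript was assembled in pieces is counted once for each piece. The exon-weighted value multiplies each FPKM by the exon bases shared with the gene, adds these products and divides by the bases of the longest annotated transcript. It does not grow when 1 transcript is cut into several. All 10 subunits were listed in both whole tumor libraries and 6 of 10 in the sorted set.

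The segments by which annotated coding transcripts of these subunits differ are shown first, because transcripts on each side of them are set apart below. They are read 5′ to 3′ on the gene's own strand. Those of Itga3 and Itga6 are the coding bases of the alternative exon near the end of each gene, which sets the cytoplasmic tail, and capitals mark the longest run that both share, 12 bases that begin at base 4 in each. Over the 105 bases compared position by position from their starts, 36 were identical (34.3%). No gap was allowed for the difference in length between the exons, so later bases were compared out of step. That share is therefore no measure of how alike the exons are.
Itga3, chr11:95046483-95046590, minus strand, 108 coding bases of a 142-base exon: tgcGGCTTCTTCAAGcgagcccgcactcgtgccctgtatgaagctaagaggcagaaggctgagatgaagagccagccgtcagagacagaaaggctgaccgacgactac
Itga6, chr2:71853534-71853638, plus strand, 105 coding bases of a 130-base exon: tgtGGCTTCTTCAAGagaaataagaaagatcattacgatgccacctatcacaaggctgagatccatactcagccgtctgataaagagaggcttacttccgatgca

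The next sequence is the coding part of the Itgb1 exon that marks the muscle form of its tail. In the remaining 3, capitals mark bases held by 1 annotated transcript and missing from another, with coding bases on either side.
Itgb1, chr8:128726983-128727054, plus strand, 72 coding bases of an 81-base exon: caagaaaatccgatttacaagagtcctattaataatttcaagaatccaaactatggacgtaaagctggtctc
Itgb4, chr11:115998146-115998154, plus strand, 9 bases at a donor site: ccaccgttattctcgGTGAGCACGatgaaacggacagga
Itgb5, chr16:33947853-33947881, plus strand, 29 bases at a donor site: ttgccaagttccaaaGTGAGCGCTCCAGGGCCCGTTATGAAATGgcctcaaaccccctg
Itgam, chr7:128101634-128101636, plus strand, 3 bases at an acceptor site: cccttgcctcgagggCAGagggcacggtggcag

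By GENCODE M21 on GRCm38, the genes on the plus strand were Itga6 at chr2:71745616-71858416, Itgav at chr2:83724397-83806916, Itgb1 at chr8:128685654-128733200, Itgb4 at chr11:115974709-116008412, Itgb5 at chr16:33829665-33949338, Itgam at chr7:128062640-128118491, Itgax at chr7:128129547-128150657 and Itgb2 at chr10:77530252-77565708. Those on the minus strand were Itga3 at chr11:95044474-95076801 and Itga5 at chr15:103344286-103366763.

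In whole tumor, Itgb1 had the highest exon-weighted value of the 10 and Itgax the lowest, whichever SMO was given. Itgb1, the beta chain shared by most matrix receptors, was at 65.1 with Control SMO against 74.3 with LFPRLR SMO. It was higher than 98.7% and 99.2% of coding genes with a value. Itga3, its laminin-binding partner, followed at 25.0 and 21.3, then Itga6 at 13.2 and 12.0. Itgav was at 10.9 and 10.1, Itgb5 at 10.7 and 8.60 and Itgb4 at 9.05 and 7.49, so these 3 lay close together. The place of Itga6 depends on the divisor, since its exon bases covered in both libraries came to 5868 and its longest annotated transcript has 4310. Averaged over such bases with Control SMO, Itga6 was at 9.65, below Itgb5 at 11.7, Itgav at 11.2 and Itgb4 at 9.83. Itgb2 was at 6.97 and 4.51. The last places were held by Itgam at 4.53 and 2.84, Itga5 at 3.08 and 3.92 and Itgax at 1.28 and 1.62. By exon-weighted value the order was the same in both libraries except that Itgam stood above Itga5 with Control SMO and below it with LFPRLR SMO. No replicate spread exists by which neighbors in that order could be separated.

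**Figure D1:**
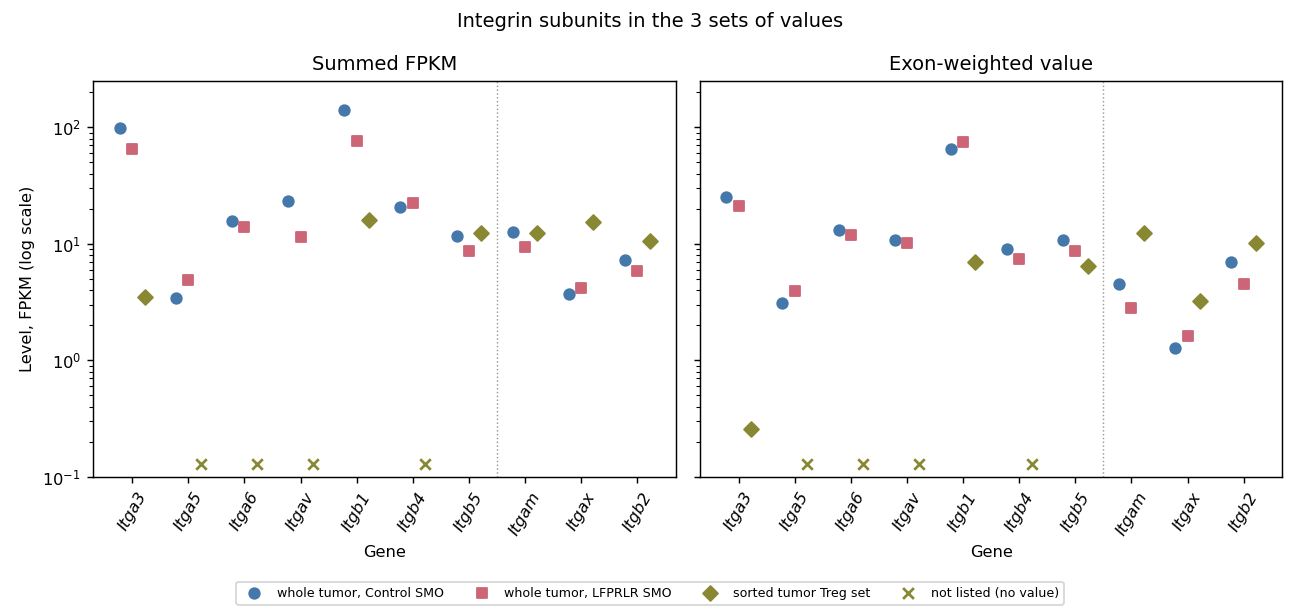
Level of each subunit in FPKM on a log axis, as summed FPKM (left) and exon-weighted value (right), with 1 point for each set of values and epithelial and stromal subunits to the left of the dotted line. Itgb1 leads whole tumor on both scales, Itgam and Itgb2 lead the sorted set on the right, and 4 subunits have no listed transcript in the sorted set.

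Summed FPKM placed some of these genes differently. Itga3 was at 99.2 with Control SMO, where it was listed as 5 transcripts, none with more than 11 of its 25 introns, against an exon-weighted value of 25.0. Itgb1 was at 140 with Control SMO as 2 pieces and at 77.2 with LFPRLR SMO as 1 transcript with all 15 introns. The Itgb1 pieces were at 66.0 and 74.1, near the 77.2 of the single transcript, and their sum alone made Itgb1 look lower with LFPRLR SMO.

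No subunit differed between the whole tumor libraries by a factor of 2 on the exon-weighted scale. The count was 0 of 10, where 14.3% of the 8902 genes tested passed that factor in either direction (5.74% higher and 8.53% lower with LFPRLR SMO). By summed FPKM it was 1 of 10, Itgav, beside 35.5% of 10464 genes (18.5% higher and 17.0% lower). Over only the genes listed in both libraries, as the 10 subunits are, the shares were 7.70% by exon-weighted value and 22.5% by summed FPKM. Averaged over the exon bases covered in both libraries, 0 of 10 subunits passed, beside 5.96% of 9212 genes. The median gene listed in both was at a log2 ratio of -0.16 on the exon-weighted scale, and 66.6% of those genes were below 0, so a subunit slightly below 0 sits with most genes. Ratios are log2((LFPRLR SMO + 0.1)/(Control SMO + 0.1)).

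The 7 epithelial and stromal subunits had a median log2 ratio of -0.13 by exon-weighted value and -0.43 by summed FPKM, beside -0.16 and -0.08 over all genes tested. By exon-weighted value 2 were above 0 and 5 below. Their exon-weighted values summed to 137 with Control SMO against 138 with LFPRLR SMO. The 3 leukocyte subunits had a median of -0.62 by exon-weighted value and -0.32 by summed FPKM, and summed to 12.8 and 8.97. Of these, Itgam and Itgb2 were below 0 and Itgax above.

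**Figure D2:**
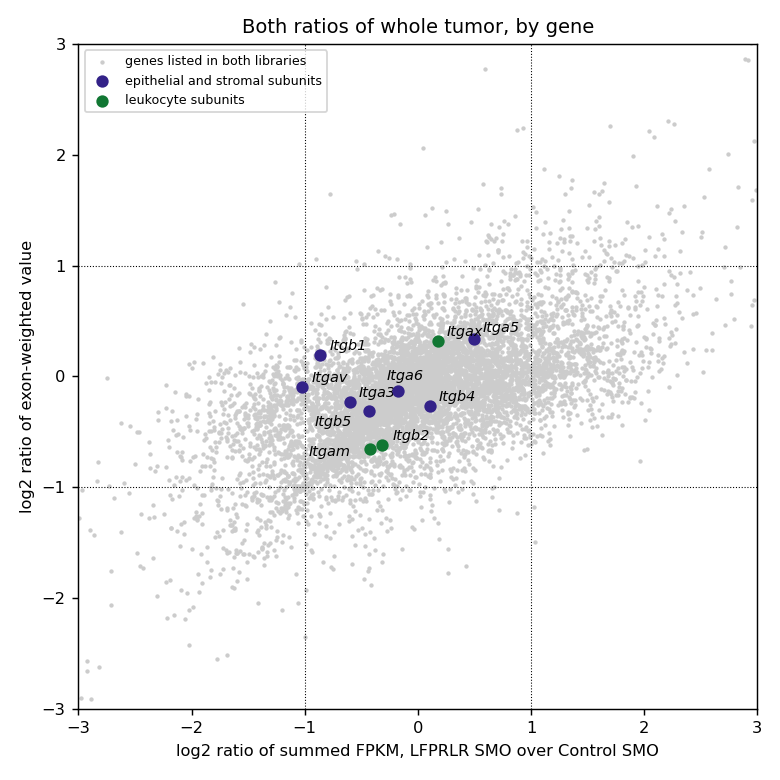
Log2 ratio of whole tumor with LFPRLR SMO over Control SMO for each gene, by summed FPKM (horizontal) and exon-weighted value (vertical), with 8666 genes in gray, 34 outside the axes and dotted lines at a factor of 2. Itgav alone among the 10 lies past a vertical line, none lies past a horizontal one, and Itgam and Itgb2 are the lowest of the 10 on the vertical axis.

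Among the laminin receptors, Itga6 gave the closest like-for-like comparison. A single transcript with all 25 introns was listed in each library, at an FPKM of 10.5 with Control SMO (deposited bounds 9.54 to 11.4) and 9.66 with LFPRLR SMO (8.76 to 10.6). These bounds overlap. Of the subunits' transcripts, 18 of 21 with Control SMO and 24 of 25 with LFPRLR SMO had an FPKM inside the bounds deposited for them, so bounds are quoted only beside single transcripts. A separate piece of the last exon added 5.22 and 4.20, which made the summed FPKM 15.7 and 13.9 and the log2 ratio -0.18, or -0.13 by exon-weighted value. Itga3 was at a log2 ratio of -0.23 by exon-weighted value and -0.60 by summed FPKM. The Itga3 pieces did not cover the same exons in both libraries. Its 5′ piece was at 15.6 over 770 bases with Control SMO against 22.5 over 1946 bases with LFPRLR SMO. Along the rest of that longer piece lay another Control SMO piece, at 23.8. The 3′ piece was at 25.9 and 15.2. The opposite directions of the ends therefore hold for the outermost stretches as they were assembled, and not for the whole 5′ piece.

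Itgb4, the hemidesmosome partner of Itga6, was at a summed FPKM of 20.7 with Control SMO against 22.3 with LFPRLR SMO but at exon-weighted values of 9.05 and 7.49, a log2 ratio of 0.11 on the first scale and -0.27 on the second. It was the most fragmented subunit with LFPRLR SMO, where 5 transcripts were assigned, against 2 with Control SMO. Within each library the exon-weighted value of Itgb4 was 0.687 of that of Itga6 with Control SMO against 0.624 with LFPRLR SMO. By summed FPKM it was 1.32 and 1.61 times that of Itga6, so both the balance and the order of the libraries turned with the scale. Over exon bases covered in both, Itgb4 averaged 9.83 and 7.97 and Itga6 9.65 and 8.81.

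Itga5, the fibronectin receptor chain, was the only epithelial or stromal subunit above its Control SMO value on both scales, with a log2 ratio of 0.34 by exon-weighted value and 0.50 by summed FPKM. With only the most abundant transcript of each library its ratio was -0.73. It was listed with Control SMO as 1 transcript with all 29 introns at 3.43 (bounds 2.91 to 3.97). With LFPRLR SMO it was listed as 3 overlapping transcripts at 1.63, 2.02 and 1.23. Their sum was 4.88 only where all 3 overlap, and over the 3950 exon bases covered in both libraries Itga5 averaged 3.43 and 4.21. At these levels the gene rests on few reads, 25.4 and 30.5 kilobases of aligned read as coverage times length.

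Itgav showed how far the scales can part. By summed FPKM it was at 23.3 with Control SMO against 11.4 with LFPRLR SMO, a log2 ratio of -1.02. With Control SMO the gene was in 3 pieces, at 6.64, 3.08 and 13.6, the last of which held the 3′ end. With LFPRLR SMO a transcript with all 29 introns was at 8.39, beside a 3′ piece at 3.05. By exon-weighted value Itgav was at 10.9 and 10.1 and its log2 ratio was -0.10. Over the 6835 exon bases covered in both it averaged 11.2 and 10.1, a log2 ratio of -0.14. In both libraries the 3′ end was the higher part, so the difference by summed FPKM lay in how often pieces were counted.

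Itgb5, the partner of Itgav, was listed as 1 transcript with all 14 introns in each library, at 11.7 with Control SMO (bounds 10.5 to 12.9) and 8.67 with LFPRLR SMO (7.69 to 9.64). These bounds do not overlap, but they cover read counting within a library and not the spread between mice. The log2 ratio was -0.43 by summed FPKM and -0.31 by exon-weighted value. Among all genes listed in both libraries, the lower quartile of the exon-weighted ratios was -0.43, below that of Itgb5. Over exon bases covered in both, the ratio of Itgb5 was -0.43 and lay below the lower quartile of -0.38.

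**Figure D3:**
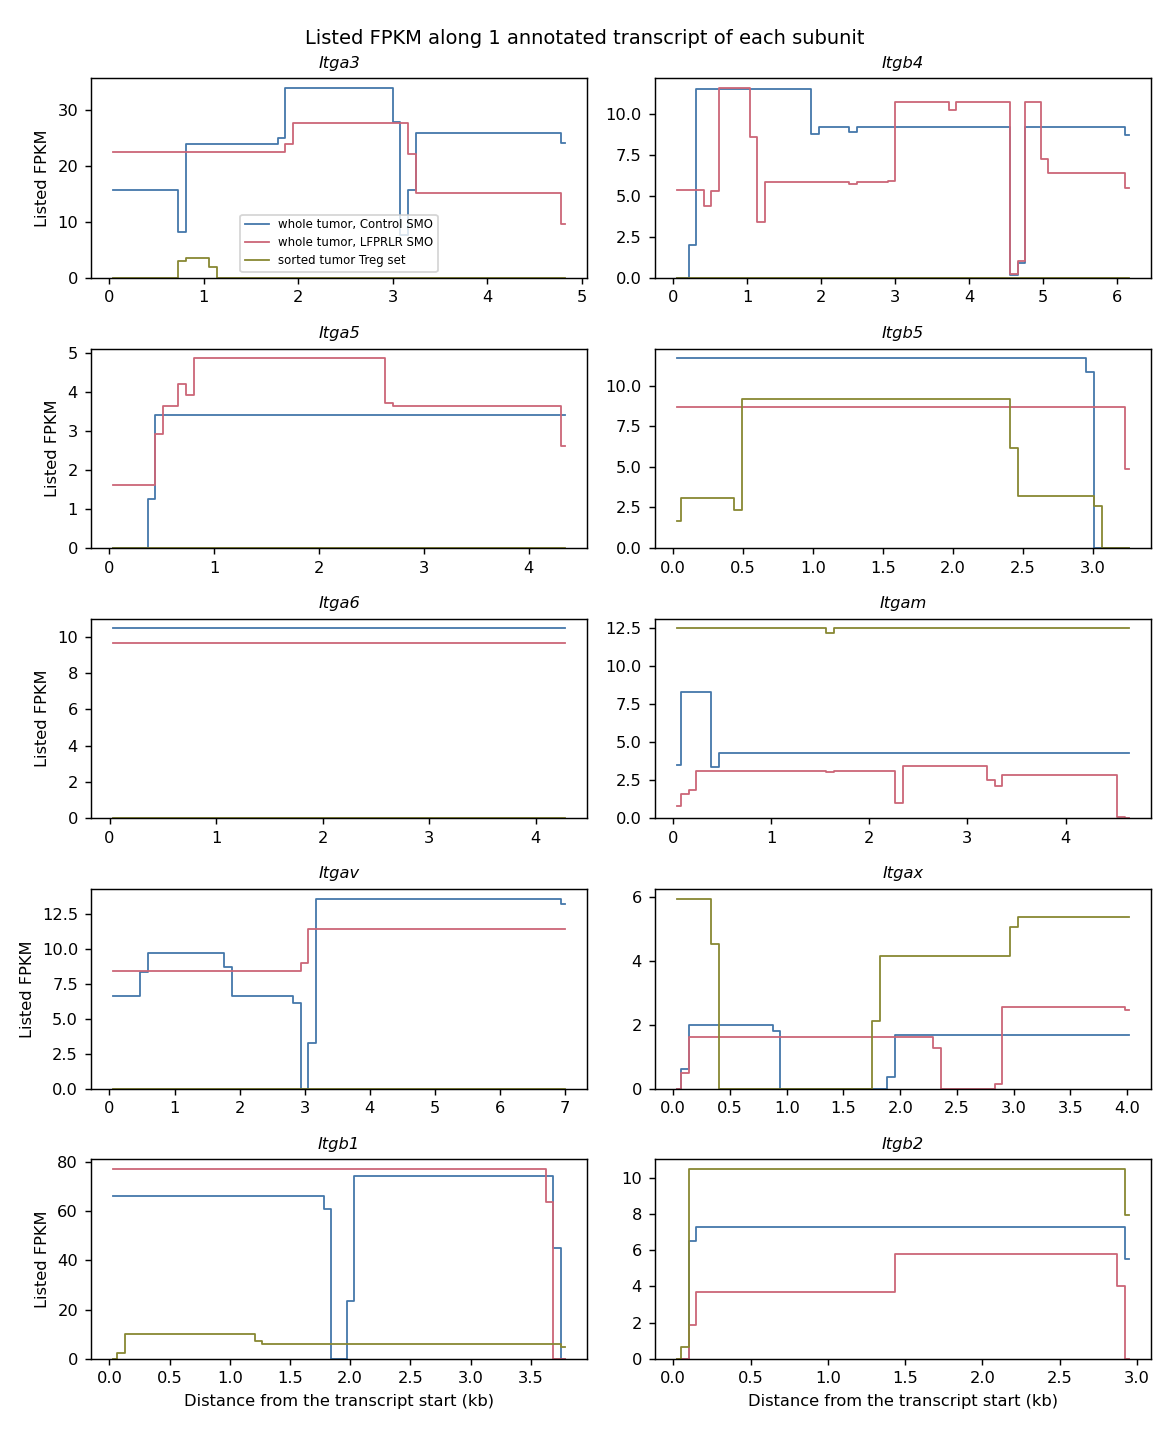
Listed FPKM, summed over transcripts, along 1 annotated coding transcript of each subunit, with distance from the transcript start in kilobases and 1 line for each set of values. In whole tumor Itga6 runs level along its whole transcript and Itgb5 along nearly all of it, and Itgb1 and Itgav with Control SMO break where 1 piece ends and the next begins. The sorted set is listed along the whole of Itgam and nearly all of Itgb2. Its line was scaled by another program, so its height is not compared with the whole tumor lines.

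The leukocyte chains Itgam and Itgb2, which together form Mac-1, had the lowest exon-weighted ratios of the 10. Among all genes listed in both libraries, both lay between the lowest decile of -0.76 and the lower quartile of -0.43. Itgb2 was listed with all 15 introns in each library, at 7.26 with Control SMO (bounds 6.30 to 8.21) against 3.70 with LFPRLR SMO (2.96 to 4.47). These bounds do not overlap, but they too leave out the spread between mice. A second LFPRLR SMO transcript of the last 6 exons, at 2.10, raised the summed FPKM there to 5.80. Exon-weighted values were 6.97 and 4.51, a log2 ratio of -0.62, and over the 2782 exon bases covered in both libraries the ratio was -0.58. Itgb2 was thus lower with LFPRLR SMO along its listed length, by more over the 5′ exons than over the last ones.

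Itgam was at 4.53 with Control SMO against 2.84 with LFPRLR SMO by exon-weighted value, a log2 ratio of -0.65, and at 12.6 and 9.37 by summed FPKM, a ratio of -0.42. The Control SMO sum included a first piece of 358 bases at 8.30, which lay outside its own deposited bounds of 1.74 to 6.32. The rest of Itgam with Control SMO was 1 transcript of 24 introns at 4.29 (bounds 3.69 to 4.87). With LFPRLR SMO it was in 4 pieces, at 1.62, 1.46, 3.45 and 2.85, the first pair of which overlap. Each of these 4 lay below the 4.29 of the long Control SMO transcript. Over the 4357 exon bases covered in both libraries, which include the first piece, Itgam averaged 4.62 and 3.03.

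Itgax, the other partner of Itgb2, did not follow them. Its exon-weighted value was 1.28 with Control SMO against 1.62 with LFPRLR SMO, a log2 ratio of 0.32, and its summed FPKM was 3.68 and 4.17, a ratio of 0.18. It was covered over only 72.4% and 83.6% of its transcript, from 9.87 and 10.9 kilobases of aligned read, the least of the 10. With 1 library per group, whether a difference of this size in a gene with so few reads exceeds noise could not be tested. The same holds for the differences of Itgam and Itgb2. As genome neighbors, Itgam and Itgax lie 11055 bases apart on chromosome 7 in the same orientation.

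Markers of monocytes and macrophages were lower with LFPRLR SMO beside Itgam and Itgb2. All 13 of the 13 listed in both whole tumor libraries were below 0 by exon-weighted value, as were 66.6% of all genes listed in both. Their median log2 ratio was -0.62, beside -0.16 for all those genes. The list summed to 488 with Control SMO against 313 with LFPRLR SMO. Csf1r, the receptor for the macrophage growth factor CSF1, was at 10.2 and 6.47, and Adgre1 (F4/80) at 2.70 and 2.01. Neutrophil markers did not go the same way, with sums of 46.4 and 52.2 over 5 and 4 of 12 listed. In these bulk samples, fewer leukocytes and less RNA per leukocyte cannot be told apart, and the part of either in the Itgam and Itgb2 values was not tested.

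The lists that hold the other subunits differed less. The 4T1 epithelial markers summed to 268 with Control SMO against 235 with LFPRLR SMO over 12 and 11 of 12 listed. Their median log2 ratio was -0.13, the same as the epithelial and stromal subunits to 2 decimals. Both lay near the -0.16 of all genes listed in both libraries. Fibroblast markers summed to 211 and 244 over 9 of 10, with a median log2 ratio of 0.22, 7 above 0 and 2 below. Endothelial markers summed to 17.2 and 15.1 over 6 and 5 of 8, with a median of -0.42, 1 above 0 and 4 below. Of the T cell and Treg markers only Ikzf2 was listed in whole tumor, at exon-weighted values of 0.764 and 0.687. Of 8 dendritic cell markers 0 were listed, so the cells that carry Itgax could not be placed by that list.

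**Figure D4:**
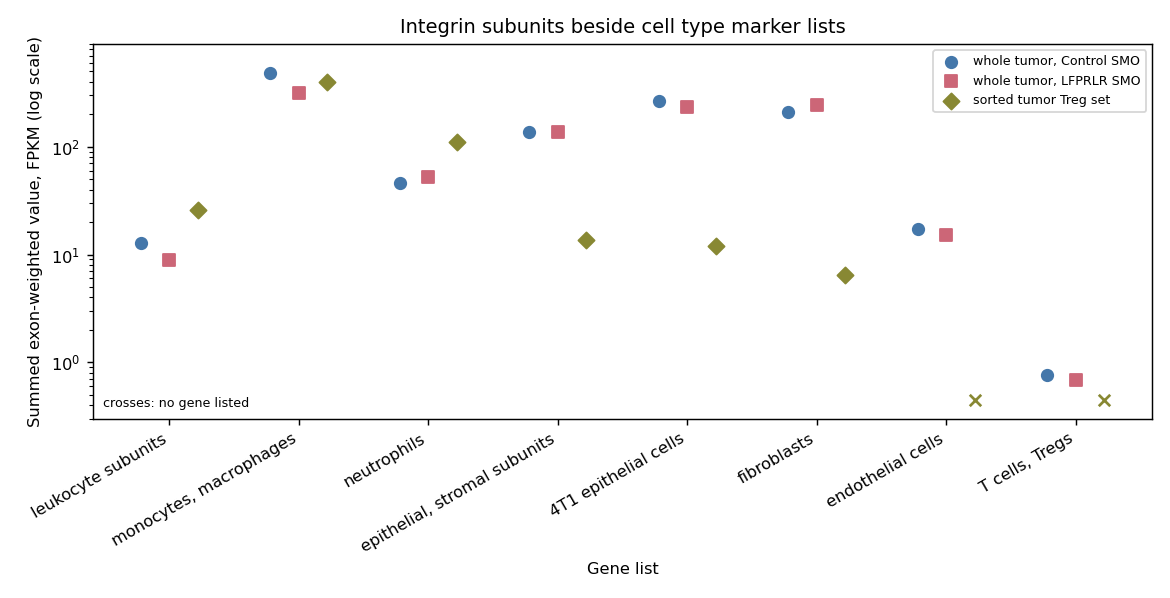
Summed exon-weighted values in FPKM, on a log axis, of the integrin subunits and of cell type marker lists in the 3 sets of values. The leukocyte subunits and the monocyte and macrophage markers are lower in whole tumor with LFPRLR SMO, at 8.97 against 12.8 and 313 against 488, and the sorted set has no listed endothelial or T cell marker.

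The balance of beta chains was compared inside each library, where no scaling between programs is needed. By exon-weighted value the Itgb2 to Itgb1 ratio was 0.107 in whole tumor with Control SMO against 0.0606 with LFPRLR SMO. By summed FPKM the order was the opposite, 0.0518 and 0.0752, because the Control SMO value of Itgb1 counts 2 pieces. In the sorted set the ratio was 1.45 by exon-weighted value and 0.652 by summed FPKM, above both whole tumor libraries on either scale. The 3 leukocyte subunits made up 8.53% of the exon-weighted sum of the 10 with Control SMO, 6.11% with LFPRLR SMO and 65.3% in the sorted set. Itgb1 alone made up 43.5%, 50.7% and 17.6%. By summed FPKM the order of the whole tumor libraries was the opposite for both, with leukocyte shares of 6.96% and 8.67% and Itgb1 shares of 41.5% and 34.6%. The sorted set had the highest leukocyte share on that scale too, at 54.7%. Itgb1 and Itgb5 were also listed in the sorted set, so these shares follow the gene lists and were not shown to divide cell types.

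Levels in the sorted set came from another program and were normalized separately, so they are described and not compared by ratio. By exon-weighted value the order was Itgam at 12.4, Itgb2 at 10.1, Itgb1 at 6.96, Itgb5 at 6.48, Itgax at 3.22 and Itga3 at 0.259. Itgam was higher than 93.0% of coding genes with a value in that set and Itgb2 than 91.4%, against 72.7% and 83.6% in whole tumor with Control SMO. Itgam and Itgb2 were each listed there over all of their introns, 29 and 15. Itga3 was listed only as a piece of 358 bases with 2 introns, covering 7.37% of its transcript. Itga5, Itga6, Itgav and Itgb4 were not listed there, which does not show that they were absent, since the lowest FPKM of a transcript without a gene symbol in that set was 2.64. The sum of 4T1 epithelial markers in it was 12.0 over 7 of 12 listed, with Epcam not listed. Monocyte and macrophage markers summed to 401 over 14 of 14. Neutrophil markers summed to 110 over 5 of 12, of which Mmp9 alone was at 100.5.

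Itgb5 was listed in the sorted set as 3 pieces whose summed FPKM was 12.3, while its partner Itgav was not listed. The leukocyte alpha chains Itgam and Itgax together came to 1.55 times Itgb2 by exon-weighted value in the sorted set, 0.832 times with Control SMO and 0.990 times with LFPRLR SMO in whole tumor. By summed FPKM the same ratios were 2.67, 2.24 and 2.34, where whole tumor lay near the sorted set.

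The listed transcripts also showed which alternative segments were in use. For Itga3 the alternative tail exon was spliced in by the 1 transcript that reached it in each whole tumor library, at an FPKM of 25.9 with Control SMO against 15.2 with LFPRLR SMO. No listed transcript skipped it. The Itga6 exon that shares its 12-base run was likewise spliced in, at 10.5 and 9.66, and no listed transcript skipped it. Both are the forms known as A, which epithelial tissues use widely. A pair of Itgav exons of 108 bases was kept in both libraries, at 9.72 and 8.39, with 0 listed transcripts without it.

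For Itgb1 the muscle-type exon of 81 bases was in no listed transcript, while the intron that passes over it was listed at 74.1 with Control SMO, 77.2 with LFPRLR SMO and 5.87 in the sorted set. The Itgb5 transcripts used the donor that keeps the 29 bases, at 11.7, 8.67 and 3.23, and none used the other. For these 5 genes the segment choice was therefore the same wherever a junction was listed.

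Itgb4 and Itgam were the subunits with both choices listed. The 9 bases of Itgb4 were kept at 9.18 with Control SMO, with 0 listed transcripts without them. With LFPRLR SMO transcripts that kept them were at 4.89 and those without them at 5.84. The 3 bases at an Itgb4 acceptor also had both choices listed with LFPRLR SMO only. Transcripts that kept them were at 1.49 and those without them at 4.35, where with Control SMO only the form without them was listed, at 9.18. The 2 longer Itgb4 exons, of 195 and 159 bases, were passed over in all listed transcripts that span them. A transcript list holds only what the assembler kept above its own minimum, so a form that was not listed may still be present at a low share.

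The 3 bases of Itgam were kept at 5.53 in the sorted set and left out at 6.91, where both full-length transcripts were listed. In whole tumor with LFPRLR SMO the values were 1.62 with them and 1.46 without, and with Control SMO no listed transcript held either junction. The forms were thus close to equal in both sets that could show them.

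**Figure D5:**
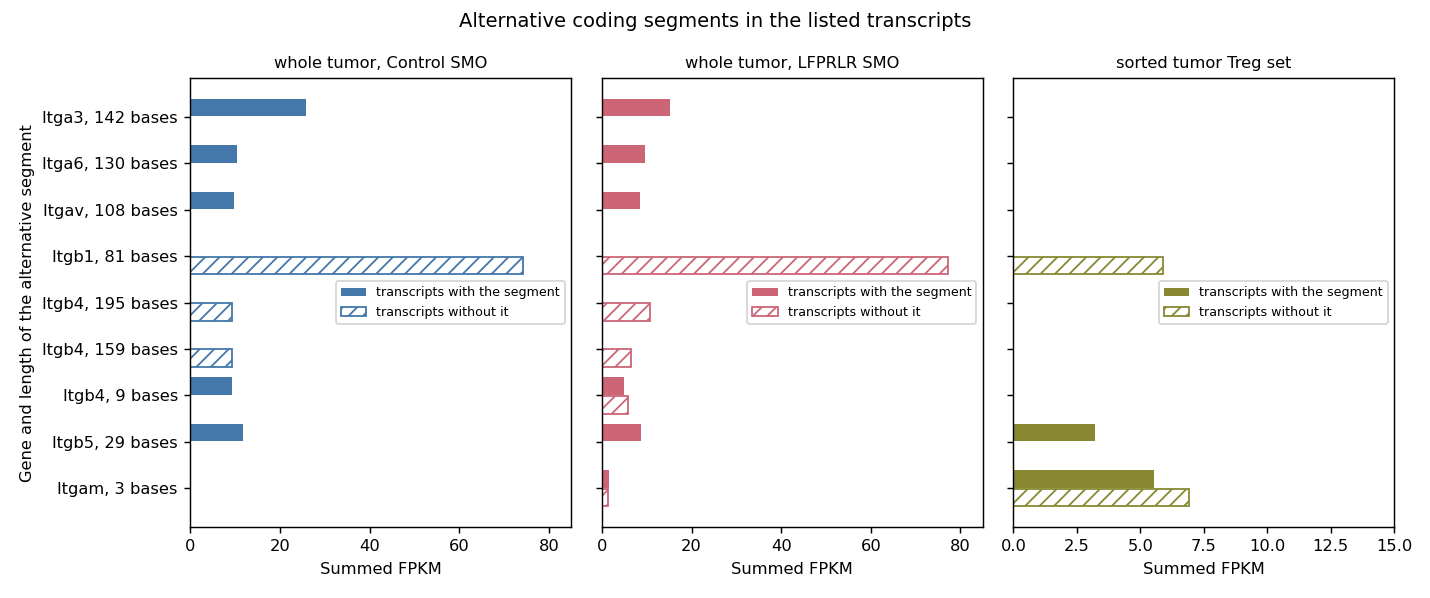
Summed FPKM of listed transcripts that hold a segment (filled bars) or splice past it (hatched bars), for 9 alternative coding segments named by gene and length, in the 3 sets of values, with a shorter axis for the sorted set. Of the 9 segments drawn, the Itgb4 segment of 9 bases and the Itgam segment of 3 bases have both bars, and the Itgb4 one has both with LFPRLR SMO only.

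Of 16 other integrin subunits, whole tumor listed 5 with Control SMO, and LFPRLR SMO had these and 1 more. Itga2, a collagen receptor chain, had exon-weighted values of 4.57 and 5.14, although its summed FPKM of 4.75 and 12.2 was higher with LFPRLR SMO by more than a factor of 2. The exon-weighted values of Itga1, another collagen receptor chain, were 2.11 and 2.26. Itgb3, which pairs with Itgav, was at 2.97 and 2.51. Itga4, the chain that binds VCAM-1 and fibronectin, was at 1.25 and 0.347, and Itga9 at 0.969 and 0.402. Both of these were lower with LFPRLR SMO by more than a factor of 2 on both scales, with log2 ratios by exon-weighted value of -1.60 and -1.09, at levels near 1 where few reads stand behind a value. Itga9 was under the minimum of 1 in both libraries by exon-weighted value, so it was not among the genes tested on that scale. Over all genes listed in both libraries, 7.70% by exon-weighted value and 22.5% by summed FPKM passed that factor in either direction. Itgal (CD11a), another alpha partner of Itgb2, was listed with LFPRLR SMO at 0.232 and not with Control SMO, and in the sorted set at 0.273 beside Itga9 at 0.158. Itga2b, Itga7, Itga8, Itga10, Itga11, Itgad, Itgae, Itgb6, Itgb7 and Itgb8 were not listed in whole tumor.

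Of 25 extracellular ligands 23 were listed in both whole tumor libraries, with 0 past a factor of 2 by exon-weighted value and a median log2 ratio of 0.08. For this and each further partner list, the shares over all genes listed in both were 7.70% by exon-weighted value and 22.5% by summed FPKM. Spp1 (osteopontin), a ligand of Itgav receptors, was the highest at 486 with Control SMO against 429 with LFPRLR SMO. Col3a1, a fibrillar collagen, was at 49.0 and 60.3. Tgfb1, whose latent form binds Itgav receptors, was at a summed FPKM of 23.5 and 5.13 but at exon-weighted values of 5.42 and 4.34. Lama2, a laminin chain, was at a summed FPKM of 1.39 and 5.85, past a factor of 2. Its exon-weighted values of 0.157 and 0.349 gave a log2 ratio of 0.81, and at this level the pseudocount of 0.1 keeps it under a factor of 2. By summed FPKM 1 of the ligands was higher and 2 were lower by that factor.

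Of 14 ligands of leukocyte integrins 5 were listed in both whole tumor libraries, all below 0 by exon-weighted value, as 66.6% of all genes were, with a median of -0.21 beside -0.16 and 0 past a factor of 2. C3, the complement component whose fragment Itgam binds, was at 12.7 and 12.6. Thy1 was at 10.5 and 9.11 and F11r (JAM-A) at 4.11 and 3.55. Of these, C3 alone was listed in the sorted set, at 1.40.

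Of 29 cytoplasmic adaptors and kinases 27 were listed in both whole tumor libraries, with 0 past a factor of 2 by exon-weighted value and a median of -0.05. That 0 rests on the pseudocount of 0.1 for Fermt3 and Tns1. Fermt3 was at 2.289 and 1.106, a log2 ratio of -0.99, and Tns1 at 0.511 and 1.055, a ratio of 0.92. Tln1 (talin), which activates integrins through the beta tail, was at 11.8 and 11.7. Flna (filamin A), which competes with talin for that tail, was at 22.1 and 22.9, although its summed FPKM was 22.8 and 45.2. By summed FPKM 3 of them were higher and 1 was lower by a factor of 2. Tln2 was at exon-weighted values of 0.227 and 0.302 and a summed FPKM of 2.04 and 6.09, and Sharpin, which holds integrins inactive, at a summed FPKM of 3.47 and 8.80 but within a factor of 2 by exon-weighted value.

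Of 10 hemidesmosome and tetraspanin partners 8 were listed in both, with 0 past a factor of 2 and a median of -0.33 by exon-weighted value. By summed FPKM 1 was higher and 1 lower by that factor, Dst and Cd81, with a median of -0.13. Cd9, a tetraspanin that associates with Itgb1 receptors, was at exon-weighted values of 79.5 and 50.2, a log2 ratio of -0.66. Cd63 was at 16.3 and 12.2 and Cd81 at 19.0 and 13.7, ratios of -0.41 and -0.47. Dst (dystonin), a linker of hemidesmosomes, was at 6.40 and 7.63 by the same measure. By summed FPKM Dst was at 17.2 and 54.6, and Cd81 at 40.1 and 14.9. The 3 tetraspanins named were lower with LFPRLR SMO and Dst higher on both scales, and the sizes depended on the scale.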

How the data were processed

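RNAseq of whole 4T1 tumors and sorted tumor Tregs was read from 4 deposited transcript lists on mm10, 1 per library. The authors deposited an FPKM per transcript, made with Cufflinks for whole tumor and StringTie 1.2.3 for tumor Tregs. The submitters' processing notes also name HISAT2 2.0.4 and Cuffdiff 2.0.2, while the Cufflinks version and read totals are not given in the sources used here, so depth is known only as listed coverage. Each list was scaled by its own program, and a gene below a program's minimum is missing from it.

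Transcripts were assigned to GENCODE M21 genes by deposited symbol, then by shared intron, then by at least 50% of exon bases, with ties between a named and a predicted gene given to the named one. Of 22481, 31908 and 4838 transcripts, 3815, 11666 and 294 had no gene. Ratios used a pseudocount of 0.1 FPKM, a minimum FPKM of 1 in either whole tumor library and a factor of 2. A gene listed in 1 library enters as 0 in the other, so its ratio is set by the pseudocount. Sequences were cut from the GENCODE M21 transcripts by annotated coordinates.

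The 10 genes and all lists were chosen with earlier results of these data known. Named genes were the 10 subunits, each listed gene among the other integrin subunits, and, in each of 4 partner lists, the 2 highest by FPKM with Control SMO and the 2 with the largest ratio among genes reaching an FPKM of 5. Fermt3 and Tns1 were named beyond this rule, for ratios near a factor of 2. Alternatives to the pseudocount, filter, factor, scaling, assignment and gene value were computed. Assignment and counting were tested on simulated data. The scripts ran in Python 3.11.15 with numpy 2.4.6, and matplotlib 3.10.9 drew the plots.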

Additional observations from a re-analysis of the deposited data

How the results depend on the processing

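With 1 library per group there is no spread between replicates, so a value was called moved when it changed by more than 1.5 times. Of 80 recomputed log2 ratios of the 10 subunits, 70 stayed within that range, 10 moved, and 8 lay on the other side of 0 from the reported value. All that moved or crossed 0 came from exon-weighted values, the most abundant transcript only, or bases covered in both libraries. The other settings had little room to move a ratio, since a minimum of 300 bases changed none and centring shifted all alike. The 70 therefore do not measure robustness. The ratios that crossed 0 were those of Itga3, Itga5, Itgb1 and Itgb4, which with the most abundant transcript only were 0.07, -0.73, 0.06 and -0.64. Itga6, Itgav, Itgb5, Itgam and Itgb2 were below 0 and Itgax above 0 in all 9 settings, those that change the gene value among them. Centring was applied to summed FPKM only, and a sign is not a place beside other genes. By exon-weighted value Itga6 at -0.13 and Itgav at -0.10 lay above the median gene at -0.16, and Itgb5, Itgam and Itgb2 below it. Over bases covered in both libraries, Itga6 at -0.13 and Itgav at -0.14 lay just below the median of -0.12. The 1 subunit past a factor of 2 by summed FPKM became 0 with a pseudocount of 1, by exon-weighted value, after centring on the median gene, at a factor of 3, and over exon bases covered in both libraries, an alternative chosen after seeing the data. Genes higher with LFPRLR SMO fell from 1938 to 511 by exon-weighted value, 1018 with a shared intron only, 889 at an FPKM of at least 5, 1259 at a factor of 3 and 185 over bases in both, and genes lower from 1780 to 759, 852 at an FPKM of at least 5, 1115 at a factor of 3 and 364 over bases in both. The median of leukocyte subunits was -0.95 with the most abundant transcript only, against -0.32. The Itgb2 to Itgb1 ratio with that setting was 0.0979, 0.0480 and 1.03 in whole tumor with Control SMO, with LFPRLR SMO and in the sorted set, and by exon-weighted value 0.107 with Control SMO and 1.45 in the sorted set. The cause was not tested. No paired analysis was possible because each group is 1 library and the result comes from no test.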
